A study of Homo sapiens with 6 samples.

Results

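Amino acid transporters of 7 solute carrier families (SLC1, SLC3, SLC6, SLC7, SLC36, SLC38 and SLC43) were examined in 786-O cells with and without an shRNA against PLEKHO1. The rule that picks members reads gene symbols. Every probe set that the platform annotation gives exactly 1 gene symbol of these families counted, which took 170 probe sets of 60 genes among the 18132 genes tested. Where a gene had several probe sets, as 46 of the 60 did, the 1 with the highest mean over the 6 arrays stood for it. The name rule also takes genes that do not carry amino acids. The SLC6 family holds carriers of monoamines, creatine, taurine and betaine, SLC43A3 carries purine nucleobases, and SLC7A6OS is a gene on the strand opposite SLC7A6 that codes for no transporter.

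The arrays compared 786-O cells, an established human line from a renal cell carcinoma, carrying a lentiviral negative control shRNA (shNC, 3 arrays) with the same line carrying a lentiviral shRNA that targets PLEKHO1 (shPLEKHO1, 3 arrays). Both groups had thus received lentivirus and a hairpin, and the labels name a single targeting shRNA and no untreated cells. The labels do not say whether the replicates of a group came from separate cultures, so p-values cover only array-to-array spread, which could be technical. In such a comparison of total RNA, fewer expressing cells and less RNA per cell cannot be told apart.

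Amino acid transporters differ in their substrates and in what drives them. The heteromeric exchangers pair a glycoprotein heavy chain of SLC3, which brings the complex to the membrane, with a light chain of SLC7 that moves 1 amino acid in for another out. Carriers of SLC1, SLC6 and SLC38 use the sodium gradient, SLC36 uses protons, and the cationic carriers of SLC7 import arginine and lysine. In the kidney, such carriers recover amino acids from the filtrate, and dividing tumour cells use several of them to take up glutamine, leucine and cystine. When amino acids run short, ATF4 induces a set of transporters and synthesis enzymes, and the kinase complex mTORC1 reads amino acid supply at the lysosome.

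Values are deposited intensities. Differences subtract shNC from shPLEKHO1 after quantile normalization of log2(intensity + 1) and are given ± SE, with n = 3 arrays per group. "Rose", "fell" and "changed" mean an adjusted p under 0.05 in limma over all 18132 genes (Benjamini-Hochberg). The targeted gene was lower: PLEKHO1 read 134.7, 142.6 and 126.1 with shNC and 110.3, 115.7 and 97.4 with shPLEKHO1, a log2 difference of -0.32 ± 0.08 (limma adjusted p = 0.0123; exact two-sided permutation test of 3 against 3 arrays, p = 0.1, the smallest this design allows). Log2 values correlated at 0.998 to 0.999 within a group and at 0.989 to 0.990 between groups, and median intensity was between 55.7 and 57.1 on every array. Of 13 measured renal carcinoma markers, 11 lay above the median level of all genes, among them PAX8, EPAS1 and VIM, while the tubule receptors CUBN and LRP2 were dim. The summed marker levels were 27222 to 27518 with shNC and 28209 to 28599 with shPLEKHO1 for these 13 genes, 195 to 205 and 205 to 241 for 7 leukocyte markers, 198 to 231 and 197 to 212 for 6 endothelial markers, and 470 to 506 and 433 to 497 for 6 neuron markers. VIM made up most of the renal sum. Of the renal markers 8 changed, 3 up and 5 down, among them CDH6 (-0.96), LHX1 (-0.78), NNMT (-0.58), EPAS1 (0.54) and KRT18 (0.52). All 8 were among the 11 above the median level, where 55.8% of all genes changed. Of the 6 neuron markers 3 changed (SYT1 at 0.82, MAP2 at 0.31 and SNAP25 at -0.30), where 34.1% of all genes did. Of the leukocyte and endothelial markers 0 changed in limma, with 1 at an unadjusted p under 0.05. None of these probe sets read 0, and PTPRC, the defining leukocyte marker, read a mean of 6.39 and 6.82. The part of the marker differences in the results below was not tested.

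Transporter genes as a group changed about as often as other genes and in both directions. Of the 60 members, 20 changed, 11 up and 9 down, where 34.1% of all genes changed, 18.1% up and 16.0% down. The median log2 difference was 0.02 over the members and 0.01 over all genes. On normalized values, groups did not overlap in 25 members, against 44.9% of all genes. Changes were mostly small: SLC6A6, SLC43A1 and SLC38A7 were the 3 members that changed at least 1.5-fold, where 7.21% of all genes did, and SLC6A6 was the single member past 2-fold. Of the 25 members above the median level of all genes, 17 changed, where 55.8% of all genes above it did. Of the 35 dimmer members, 3 changed (SLC43A1, SLC3A1 and SLC6A14), where 11.1% of all genes at or below the median did.

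**Figure D1:**
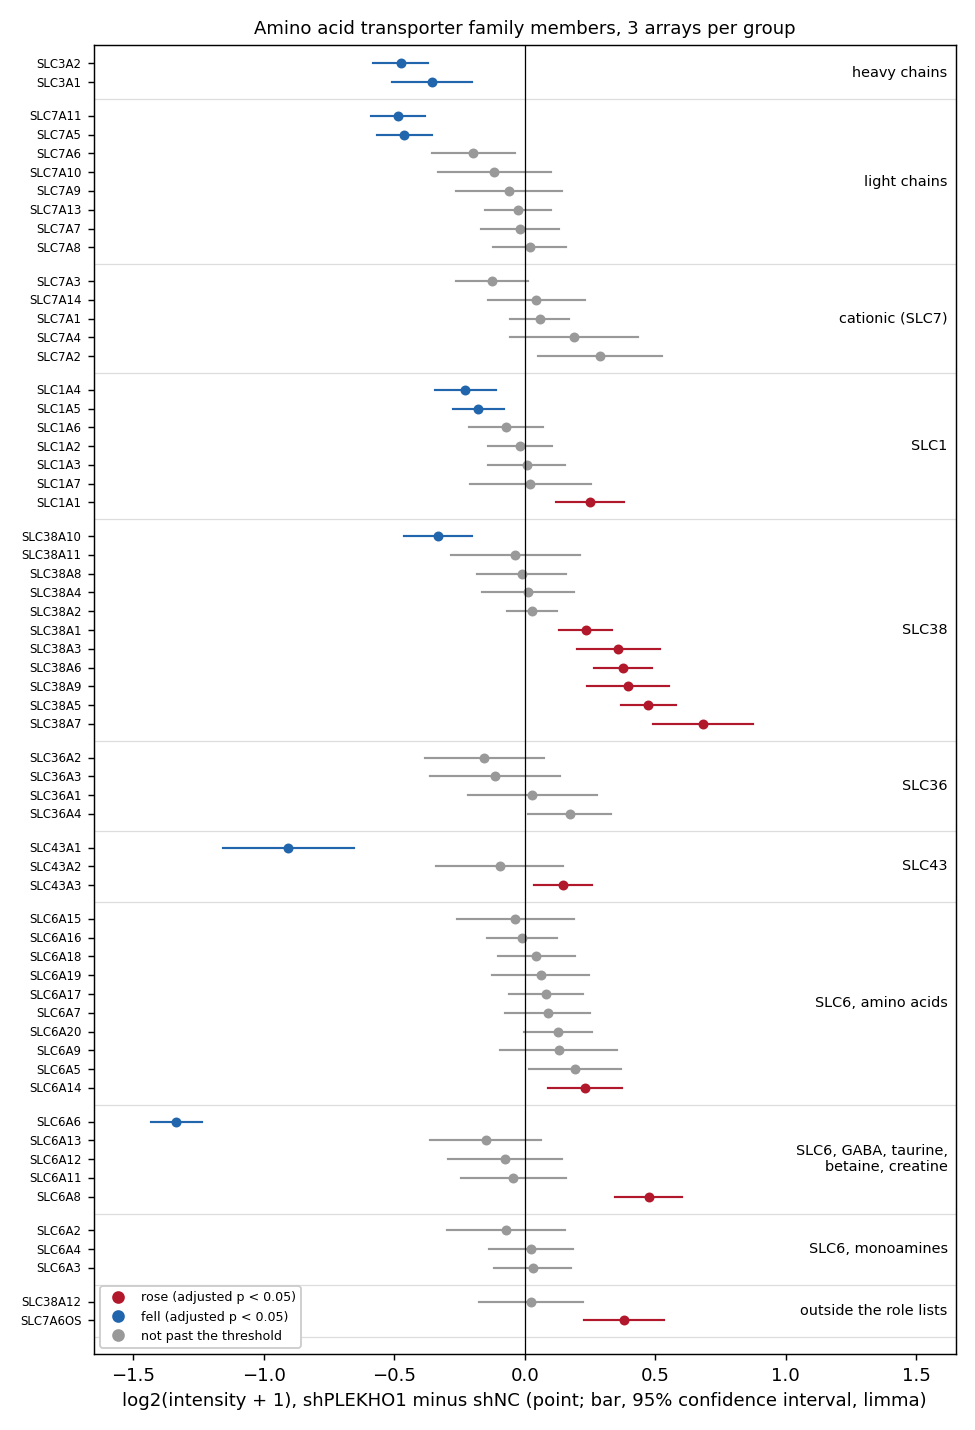
Log2 difference of the 60 members (x axis, shPLEKHO1 minus shNC on the log2(intensity + 1) scale), 1 row per gene, sorted within roles. Points are the limma estimates from 3 arrays per group and bars are 95% confidence intervals; 9 members lie to the left in blue, 11 to the right in red, and 40 in grey did not pass the threshold.

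Both heavy chains fell, where 16.0% of all genes did. SLC3A2 codes for the heavy chain of CD98, the partner of most SLC7 exchangers, and read 1443, 1337 and 1307 with shNC and 986, 1004 and 963 with shPLEKHO1. Every shPLEKHO1 array was below every shNC array, and the difference was 1.39-fold (log2 difference of -0.47 ± 0.05, limma adjusted p = 0.000125). All 7 of its probe sets fell, between -0.53 and -0.43. SLC3A1 codes for rBAT, the heavy chain of the cystine carrier of the proximal tubule, and was dim at 38.6, 44.7 and 37.8 against 33.3, 30.3 and 30.7. The groups did not overlap (-0.36 ± 0.07, limma adjusted p = 0.00378), 2 of its 5 probe sets fell, and all 5 together averaged -0.14 (limma adjusted p = 0.0354).

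Among 8 light chains, the 2 that are best known from tumours fell with CD98 and 6 did not pass the threshold. Over all genes 34.1% changed, and 55.8% of those above the median level, where 3 of these light chains lay. SLC7A11, or xCT, exchanges glutamate for cystine and so feeds glutathione synthesis. It read 824, 804 and 827 with shNC and 577, 594 and 585 with shPLEKHO1, with no overlap (1.40-fold lower, -0.48 ± 0.04, limma adjusted p = 0.000102). SLC7A5, or LAT1, imports leucine and other large neutral amino acids in exchange for glutamine, and read 685, 651 and 630 against 465, 481 and 487, again without overlap (1.38-fold lower, -0.46 ± 0.05, limma adjusted p = 0.000144). For each of these light chains 1 probe set did not pass, at 0.16 for SLC7A11 (of 3) and -0.11 for SLC7A5 (of 2), and the mean over probe sets was -0.27 and -0.28. Of the other light chains, SLC7A7, which exports arginine, was the 1 above the median level of all genes and read 134, 118 and 136 against 122, 136 and 124, with overlap (-0.02 ± 0.06, 95% confidence interval -0.17 to 0.13). SLC7A6, its close relative, was at -0.20 ± 0.07 by its brightest probe set (limma adjusted p = 0.0633), while the dimmest of its 3 probe sets rose (0.24).

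Promoter sequence was set beside SLC3A2 and SLC7A5, whose chains join in 1 complex and whose brightest probe sets fell to a similar degree. Over its 2 probe sets SLC7A5 averaged -0.28, while the 7 probe sets of SLC3A2 lay between -0.53 and -0.43. RefSeq promoter entries (GRCh38.p14) were matched for 46 of the 60 members, and the 250 bases before each start were searched on both strands for the core of the C/EBP-ATF composite element (TGATGNAAN), through which ATF4 acts, and for the core of the antioxidant response element (TGACNNNGC), through which NRF2 acts. The SLC3A2 window (chr11:62881449-62881698, plus strand, 1 of 3 starts listed) and the SLC7A5 window (chr16:87869508-87869757, minus strand) are printed 5′ to 3′, with the antioxidant element match in capitals.
SLC3A2: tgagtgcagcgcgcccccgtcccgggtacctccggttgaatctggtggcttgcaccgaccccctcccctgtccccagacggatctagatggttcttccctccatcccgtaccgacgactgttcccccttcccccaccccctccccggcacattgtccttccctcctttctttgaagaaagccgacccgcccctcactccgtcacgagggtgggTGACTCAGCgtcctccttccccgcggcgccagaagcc
SLC7A5: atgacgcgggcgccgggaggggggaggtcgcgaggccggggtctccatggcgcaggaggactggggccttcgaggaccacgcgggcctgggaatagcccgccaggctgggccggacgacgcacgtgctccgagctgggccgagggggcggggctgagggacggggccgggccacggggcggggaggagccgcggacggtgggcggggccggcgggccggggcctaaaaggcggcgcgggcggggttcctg

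The SLC3A2 window holds TGACTCAGC on the plus strand from position -37 relative to the start, and the SLC7A5 window holds neither core. Over the members with an entry, 6 of 46 hold the antioxidant core and 2 the composite core, and over all 35116 promoter entries of this length 10.9% and 3.13% do. Members with several starts had more than 1 chance to match. Of the 15 changed members with an entry, SLC3A2 and SLC1A5 hold the antioxidant core and SLC1A5 holds the composite core, the latter gene at 2 different starts. A match is a description of letters, and the arrays measured no binding.

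None of the 5 cationic transporters passed the threshold, where 34.1% of all genes changed, and 1 had an unadjusted limma p under 0.05. SLC7A1, the main arginine importer of many cell types, read 320, 300 and 305 with shNC and 320, 339 and 304 with shPLEKHO1, so the groups overlapped (0.06 ± 0.05, 95% confidence interval -0.05 to 0.17). SLC7A2 was at 0.29 ± 0.10 (limma adjusted p = 0.0641) on dim values of 25.1 and 31.0 on average.

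In the SLC1 family, the 2 neutral exchangers fell, the glutamate carrier SLC1A1 rose, and 4 members did not pass. The 3 that changed were the 3 above the median level, where 55.8% of all genes changed. SLC1A5, or ASCT2, a main route of glutamine uptake, read 1234, 1164 and 1164 with shNC and 1045, 1064 and 1057 with shPLEKHO1. The groups did not overlap but the step was small (1.13-fold lower, -0.18 ± 0.04, limma adjusted p = 0.0120), and the call was lost with median centring (adjusted p = 0.0670). Of its 3 probe sets 2 fell and 1 did not pass (-0.12). SLC1A4, or ASCT1, which carries alanine, serine and cysteine, read 234, 224 and 223 against 190, 186 and 197 (-0.23 ± 0.05, limma adjusted p = 0.00893), and 3 of its 6 probe sets fell, the most at -0.41. SLC1A1, or EAAT3, which takes up glutamate and aspartate in the renal tubule, went the other way with 232, 200 and 219 against 260, 257 and 247, without overlap (0.25 ± 0.06, limma adjusted p = 0.0101). Its other probe set was at 0.12 and did not pass.

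Of 12 members of the SLC38 family, named for its sodium-coupled carriers of neutral amino acids, 6 rose, 1 fell and 5 did not pass (median log2 difference of 0.13). The 12 include SLC38A12, a gene outside the list of 11 carriers that was at 0.02 ± 0.09 by its brightest probe set. Of the 3 SLC38A12 probe sets, 1 that was nearly as bright fell (-0.35). All 7 changed members were among the 8 above the median level of all genes, where 29.9% of all genes rose and 25.9% fell. SLC38A7, which exports glutamine from lysosomes, had the largest rise of all members. It read 84.8, 73.8 and 69.5 with shNC and 114, 124 and 127 with shPLEKHO1, without overlap (1.61-fold higher, 0.68 ± 0.08, limma adjusted p = 0.000423), and 2 of its 4 probe sets rose, with a mean of 0.35 over the 4.

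SLC38A5, a glutamine, asparagine and histidine carrier, read 474, 459 and 463 with shNC and 651, 641 and 654 with shPLEKHO1. These groups lay far apart for their spread (1.39-fold higher, 0.47 ± 0.04, limma adjusted p = 0.000120), and the gene had 1 probe set. SLC38A9, the lysosomal carrier that signals arginine to mTORC1, read 81.2, 70.4 and 72.6 against 97.3, 95.5 and 102 (0.40 ± 0.07, limma adjusted p = 0.00247), and 2 of its 3 probe sets rose. The less studied SLC38A6 read 133, 127 and 129 against 169, 164 and 170 by its single probe set (0.38 ± 0.05, limma adjusted p = 0.000555). SLC38A3, a glutamine carrier of liver, brain and renal tubule, read 81.8, 79.2 and 77.0 against 111, 95.7 and 99.1 (0.36 ± 0.07, limma adjusted p = 0.00453), but its dimmer probe set was at -0.07, and both averaged 0.14. In each of these 4 genes every shPLEKHO1 array was above every shNC array.

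SLC38A1 and SLC38A2 are the widely expressed importers of glutamine and alanine. SLC38A1 read 1409, 1385 and 1355 with shNC and 1619, 1637 and 1636 with shPLEKHO1, and all 5 of its probe sets rose (0.23 ± 0.04, limma adjusted p = 0.00391). SLC38A2, a known ATF4 target, read 1607, 1515 and 1554 against 1588, 1623 and 1616, so that the deposited values of the groups overlapped by its brightest probe set (0.03 ± 0.04, 95% confidence interval -0.07 to 0.12). Its 2 other probe sets rose (0.30 and 0.32), and with the mean over the 3 probe sets the gene passed the threshold (0.22, limma adjusted p = 0.00179). SLC38A10 was the family member that fell, from 313, 308 and 315 to 236, 244 and 261 (-0.33 ± 0.06, limma adjusted p = 0.00228). Its dimmer probe set was at 0.15, and averaged over both the gene did not pass (-0.09, limma adjusted p = 0.141).

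**Figure D2:**
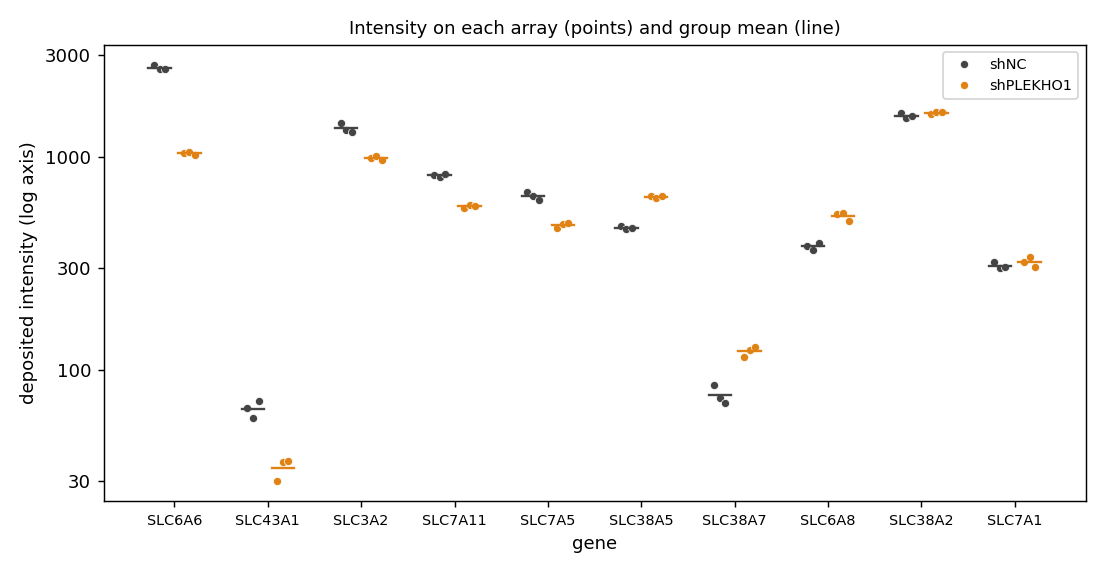
Deposited intensity (log axis) of 10 members on each of the 6 arrays, with shNC in grey, shPLEKHO1 in orange and a line at each group mean. SLC6A6, SLC43A1, SLC3A2, SLC7A11 and SLC7A5 lie lower with shPLEKHO1 and SLC38A5, SLC38A7 and SLC6A8 higher, each without overlap, while the points of SLC38A2 and SLC7A1 overlap.

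The facilitated transporters of SLC43 split. SLC43A1, or LAT3, which equilibrates leucine and other large neutral amino acids, had the second largest fall of all members. It read 66.1, 59.4 and 71.1 with shNC and 30.1, 36.8 and 37.0 with shPLEKHO1, without overlap, on the single probe set that measured it (1.87-fold lower, -0.90 ± 0.11, limma adjusted p = 0.000399). At this low level, background in the values would make the fold too small. SLC43A3 read 869, 863 and 857 against 927, 990 and 974 (0.15 ± 0.05, limma adjusted p = 0.0476). That call was lost whenever any 1 array was left out (adjusted p from 0.0618 to 0.139), and with the mean over its 3 probe sets it was at 0.09. SLC43A2 was dim and did not pass (-0.10 ± 0.11).

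None of the 4 proton-coupled transporters of SLC36 passed, where 34.1% of all genes changed, and 1 had an unadjusted limma p under 0.05. SLC36A4 read 308, 288 and 309 with shNC and 333, 321 and 367 with shPLEKHO1, without overlap but with a wide spread (0.17 ± 0.07, limma adjusted p = 0.0944). SLC36A1, which works on lysosomes, read 83.9, 86.2 and 72.0 against 93.1, 72.9 and 80.5, and the groups overlapped (0.03 ± 0.11). Of its 6 probe sets, 1 dimmer one rose (0.19) and 5 did not pass.

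The largest change of any member was in the SLC6 family. SLC6A6, the taurine transporter, which serves cells in the control of their volume, read 2688, 2599 and 2587 with shNC and 1041, 1055 and 1022 with shPLEKHO1. The lowest shNC array was far above the highest shPLEKHO1 array (2.52-fold lower, -1.33 ± 0.04, limma adjusted p = 1.29e-06). The size depended on the probe set: of its 5 probe sets 4 fell, at -1.33, -0.52, -0.31 and -0.26, and 1 rose (0.33), so the mean over probe sets was -0.42 (limma adjusted p = 0.000132). SLC6A6 was the 1 member with probe sets that passed in both directions.

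SLC6A8, the creatine transporter, read 381, 363 and 395 with shNC and 541, 542 and 502 with shPLEKHO1, without overlap (1.39-fold higher, 0.47 ± 0.05, limma adjusted p = 0.000340). A further probe set rose as much (0.46), but the third, of nearly the same brightness, was at -0.03 with means of 437 and 428, and the mean over the 3 was 0.30. Both probe sets that rose carry the x suffix, which Affymetrix gives where some probes can also match other transcripts, and a further probe set was left out because its annotation names SLC6A8 together with the pseudogene SLC6A10P.

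Of 10 SLC6 carriers of amino acids, 1 passed the threshold, where 34.1% of all genes changed. SLC6A14, a broad amino acid importer, was dim at 15.9, 17.6 and 15.1 against 19.4, 19.6 and 18.9 (0.23 ± 0.06, limma adjusted p = 0.0212). Its call was lost in 4 of the 6 fits that left out 1 array, namely without shNC replicate 1 (adjusted p = 0.0524), shNC replicate 3 (0.0721), shPLEKHO1 replicate 2 (0.0646) or shPLEKHO1 replicate 3 (0.0539), and with the mean over its probe sets (0.194). The renal neutral amino acid carriers SLC6A19 (0.06 ± 0.08) and SLC6A18 (0.04 ± 0.06) and the GABA carrier SLC6A13 (-0.15 ± 0.09) did not pass, with overlapping groups. By their brightest probe sets they lay above the median level of all genes. The next brightest probe sets were dim, with shNC and shPLEKHO1 means of 37.3 and 33.3 for SLC6A19 and 21.9 and 23.0 for SLC6A13. None of the 3 monoamine carriers passed, where 34.1% of all genes changed, and 0 of them had an unadjusted limma p under 0.05. Across the 60 members, 32 dim genes did not pass, with log2 differences from -0.20 (SLC7A6) to 0.29 (SLC7A2). SLC7A6OS, the member that is no transporter, rose (0.38 ± 0.07, limma adjusted p = 0.00267), and without it 19 of 59 members changed.

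Probe sets of a member did not always agree. Tested on their own over 44988 probe sets, of which 33.0% changed, 22 of the 170 member probe sets rose and 24 fell. Probe sets of a gene can cover different transcripts and can share target sequence, so they are not independent measurements.

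**Figure D3:**
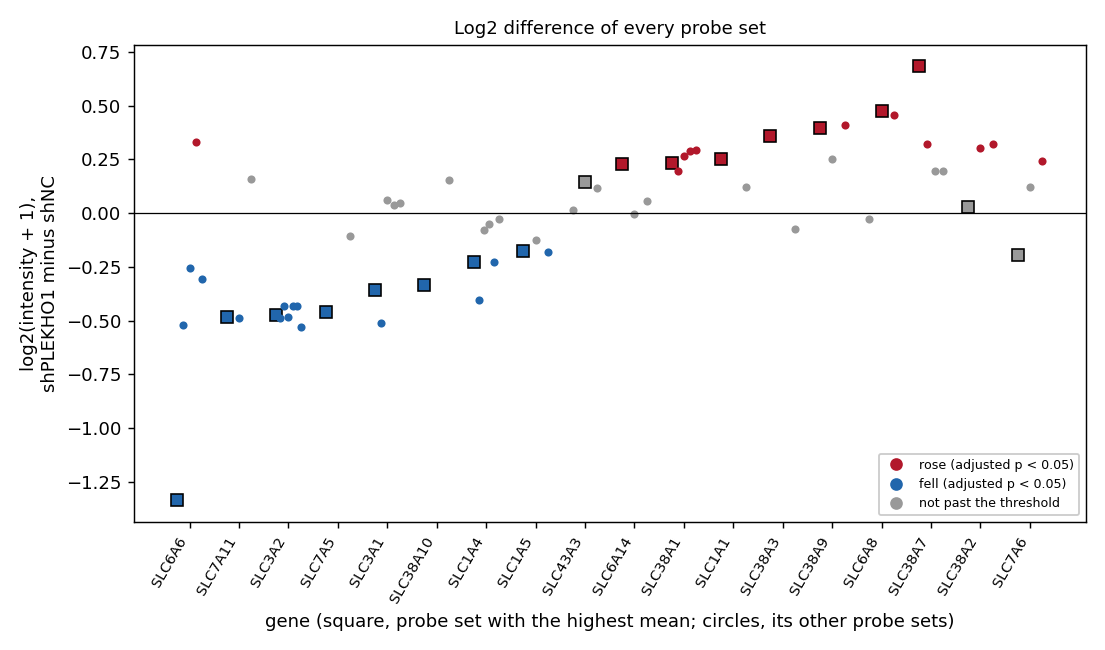
Log2 difference of each probe set (y axis, shPLEKHO1 minus shNC) for the changed members with several probe sets and for SLC38A2 and SLC7A6, coloured by the test over all probe sets, in which SLC43A3 did not pass. Squares are the probe sets with the highest mean and circles the others. All probe sets of SLC3A2 fell and all of SLC38A1 rose, while those of SLC6A6 spread from -1.33 to 0.33.

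Of 22 measured genes in the amino acid response list, 11 fell, 5 rose and 6 did not pass, with a median of -0.22. The list holds sensing machinery, such as GCN1 and EIF2S1, beside genes that respond to amino acid shortage. Of the 22 genes, 21 lay above the median level, where 25.9% of all genes fell and 29.9% rose. The transporters SLC3A2, SLC7A5, SLC7A11, SLC1A4 and SLC1A5, known ATF4 targets too, fell. The target SLC38A2 did not pass by its brightest probe set and rose by its others. SLC7A1 (0.06 ± 0.05) and SLC6A9 (0.13 ± 0.10), also reported as ATF4 targets, did not pass. This grouping stands in no list drawn up beforehand, so it gives no share of ATF4 target carriers that fell. PSPH, the last enzyme of serine synthesis, had a mean of 677 ± 22.2 with shNC and 278 ± 17.3 with shPLEKHO1 (SD, n = 3; log2 difference of -1.28 ± 0.06). The mTORC1 inhibitor DDIT4 (-1.17 ± 0.06), asparagine synthetase ASNS (-0.73 ± 0.04) and the lipoprotein receptor VLDLR (-0.70 ± 0.05) fell as well. The 5 genes of the list that rose were the transcription factor ATF3 (0.78 ± 0.06), the phosphatase subunits PPP1R15A (0.67 ± 0.08) and PPP1R15B (0.33 ± 0.04), the translation factor subunit EIF2S1 (0.52 ± 0.05) and GCN1 (0.18 ± 0.05), an activator of the kinase that senses amino acid shortage. ATF4 transcript itself was at -0.01 ± 0.04, with means of 4298 and 4241. It rests on 1 probe set, which carries the x suffix described above, and ATF4 protein was not measured. The brightest probe sets of PSPH, ASNS, EIF2S1, PPP1R15A and the transporter SLC1A5 carry that suffix too, and PPP1R15A has no other probe set. The adjusted p in limma was at most 1.98e-05 for the 4 named genes that fell, at most 0.0250 for the 5 that rose and 0.856 for ATF4.

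Several enzymes that use the transported amino acids fell. Of 23 measured genes of glutamine, glutathione and branched-chain amino acid use, 8 fell and 1 rose, with a median of -0.06. Of these genes 19 lay above the median level, where 25.9% of all genes fell and 29.9% rose. Of the 19, 8 changed, where 55.8% of all genes above the median level did. BCKDK, the kinase that holds back branched-chain amino acid breakdown, had the smallest p and went from 403 ± 8.90 to 184 ± 4.26 (SD, n = 3; -1.12 ± 0.05). GCLM, the modifier subunit of the enzyme that starts glutathione synthesis from imported cysteine, fell by 0.73 ± 0.04 on the log2 scale. Its other subunit, GCLC, did not pass (-0.15 ± 0.06, limma adjusted p = 0.104). ODC1, which makes polyamines from ornithine, was at -0.92 ± 0.06, and BCAT1, which transaminates leucine, was at -0.62 ± 0.05 by its brightest probe set and -0.21 over its 5 probe sets. The adjusted p was at most 3.62e-05 in limma for BCKDK, GCLM, ODC1 and BCAT1, all of which fell.

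Genes of amino acid sensing by mTORC1 changed about as often as other genes of their level. Of 38 measured genes 12 rose, 6 fell and 20 did not pass, with a median of 0.06. Above the median level 16 of 29 changed, where 55.8% of all genes did. The mTORC1 scaffold RPTOR (0.71 ± 0.05), the arginine sensor CASTOR1 (0.61 ± 0.06) and the S-adenosylmethionine sensor SAMTOR (0.53 ± 0.05) rose. LAMTOR3, a subunit of the lysosomal anchor, rose by its brighter probe set (0.46 ± 0.05), but the mean of its 2 probe sets was at -0.10, and that of the 6 RPTOR probe sets at 0.22. SESN2, a leucine sensor that stands in this list and in the amino acid response list, fell (-0.37 ± 0.05). The adjusted p of these 5 genes was at most 0.000976 in limma.

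Among 19 measured other carriers and partners of transporters, 3 rose and 4 fell, a share near the 34.1% of all genes that changed. The rises were in regulators of membrane transporters: the kinase SGK1 went from 177 ± 8.76 to 420 ± 16.4 (SD, n = 3; 1.25 ± 0.05), and the ubiquitin ligase NEDD4, which with its relative NEDD4L marks membrane carriers for removal, from 59.8 ± 5.49 to 136 ± 12.3 (1.17 ± 0.08). NEDD4L was at 0.74 ± 0.04 by its brightest probe set and at 0.02 over its 7 probe sets (limma adjusted p = 0.697). SLC15A4, a lysosomal carrier of histidine and peptides, fell (-0.60 ± 0.07). By the brightest probe sets the adjusted p of these 4 genes was at most 0.000275 in limma.

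**Figure D4:**
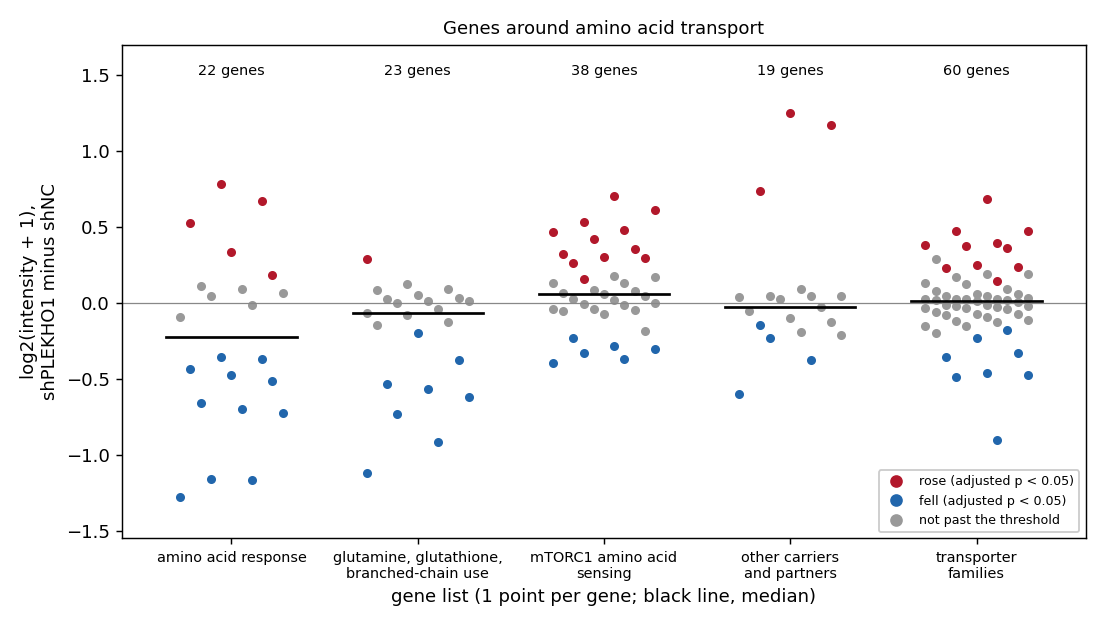
Log2 differences (y axis, shPLEKHO1 minus shNC) of the genes of 4 lists and of the 60 transporter family members, 1 point per gene, with a black line at each median. Red points rose, blue points fell and grey points did not pass; the medians are -0.22, -0.06, 0.06, -0.03 and 0.02 from left to right.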

How the data were processed

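On 6 arrays, biotin-labelled RNA of 786-O cells was measured, per the labels' protocols. Per the submitters' processing notes, the authors used Affymetrix Expression Console. Not given in the sources used here are its version and algorithm, and whether arrays were normalized to each other. Per probe set and array, 1 linear intensity was deposited. Of 49395 probe sets, 44988 had exactly 1 gene symbol and were no control. Entrez identifiers updated the symbols through RefSeq (GRCh38.p14), which matched 44961.

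The deposited intensities were turned into log2(intensity + 1), a pseudocount of 1 that understates changes of dim genes, and quantile normalized. The comparison used limma 3.58.1 (R 4.3.3; lmFit, eBayes), without covariates, over 18132 genes. The steps were tested on simulated data. The number of arrays limits the precision. Members and lists were chosen with earlier results of these data known, and no list was tested as a set. Named are PLEKHO1, each changed member, each other member above the median level, and from each pathway list up to 4 changed genes with the smallest p. ATF4, SESN2, GCLC, the rising genes of the amino acid response list, SLC6A9, SLC7A2, SLC7A6, SLC38A12 and SLC43A2 were added after their values were seen. Markers were named freely. Alternatives were median centring, no normalization, no pseudocount, dropping the dimmest 30% of genes, averaging the probe sets of a gene, testing each probe set, a robust variance trend, array weights, a replicate block and dropping each array.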

Additional observations from a re-analysis of the deposited data

How the results depend on the processing

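No count of changed genes moved by more than 1.5 times under any alternative run. Transporter genes that changed numbered 18 to 21 when 1 array was left out and 18 to 22 under the other alternatives, against 20 as reported, and at least 17 of the 20 were called under each. The calls lost at least once were SLC43A3, SLC6A14, SLC1A5 and SLC38A10, and those gained were SLC36A4, SLC38A2, SLC7A2 and SLC7A6. Changed genes in all numbered 5238 to 5701 with 1 array left out. No transporter call reversed. LAMTOR3 changed sign with the mean of its probe sets (-0.10), which did not pass. The replicate numbers did not pair the arrays: deviations of same-numbered arrays correlated at -0.16, -0.16 and -0.05. With the replicate block, 18 members changed, and SLC1A5 (adjusted p = 0.0540) and SLC43A3 (0.0961) were lost. Across quantile normalization, median centring and no normalization, the median log2 difference of all genes lay between 0.01 and 0.03. The 35 members under the median level of all genes are among the least certain, beside brighter ones whose calls were lost, such as SLC43A3 and SLC1A5. Of 23 background control probe sets, the one of highest GC content had means of 1926 with shNC and 2200 with shPLEKHO1. The one of lowest GC content had means of 4.72 and 4.89. The part of background in small differences was not tested.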
